A study of Mus musculus with 24 samples.

Results

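The contractile apparatus of smooth muscle was followed in uninjured mouse carotid arteries through 10 genes, Acta2, Myh11, Myl9, Mylk, Tagln, Cnn1, Smtn, Lmod1, Des and Myocd. They were taken by symbol from the 55421 genes in each count table, with no expression value in the rule but with earlier results of these data known, and all 10 were among the 25033 genes with enough counts to be tested. RNA sequencing was performed on carotid arteries of ovariectomized female C57BL/6 mice aged 9 weeks, with 6 libraries per group, each carrying its own animal number. Mice received vehicle, 17β-estradiol (E2), estetrol (E4) or tamoxifen, for 3 weeks according to the series record, whereas the methods of the study state another duration. E2 is the main circulating estrogen. E4 is a fetal estrogen that carries additional hydroxyl groups, and tamoxifen is a selective estrogen receptor modulator whose effect depends on the tissue. The dose was set separately for each ligand, so that a difference between ligands is also a difference between doses. For E4 the treatment entry of the labels reads placebo, and these libraries were assigned from their titles, and the tamoxifen libraries are not described in the study's text.

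Smooth muscle cells of the arterial media shorten when myosin filaments slide along actin filaments. Calcium and calmodulin activate myosin light chain kinase, which phosphorylates the regulatory light chain and starts cross-bridge cycling, and myosin phosphatase reverses it. Most genes of this apparatus are switched on together by serum response factor, which binds CArG boxes, and by its coactivator myocardin. Smooth muscle that leaves the contractile state lowers these genes.

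CArG boxes were looked for in RefSeq promoters of the members, because the serum response factor that myocardin activates binds there. The starts are those of RefSeq and can differ from the GENCODE gene ends given for the members: the windows of Mylk (chr16:34784700-34784999) and Smtn (chr11:3539243-3539542) and the printed stretch of Acta2 lie inside the GENCODE genes. The table (GRCm38.p6) matched 7 of the 10 genes, and Myh11, Tagln and Myocd were not among them. A CArG box is a 10-base element in which CC and GG flank a run of A and T bases. Over all 32851 promoters, an exact box lay in 1.47% within 250 bases before the RefSeq start, and a box with up to 1 mismatch in 18.6%. A pair or more of such boxes was found in 2.96%. The promoters of Acta2, Lmod1 and Myl9 each held 2, and Myl9 was the member with an exact one. The stretches that hold them are printed 5′ to 3′ on the strand of the gene, with the boxes in capitals:

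Acta2 (chr19:34255393-34255473, minus strand): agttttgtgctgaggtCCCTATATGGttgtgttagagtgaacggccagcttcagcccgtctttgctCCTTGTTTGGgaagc

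Lmod1 (chr1:135324613-135324673, plus strand): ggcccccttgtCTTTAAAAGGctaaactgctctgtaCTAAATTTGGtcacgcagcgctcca

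Myl9 (chr2:156775294-156775384, plus strand): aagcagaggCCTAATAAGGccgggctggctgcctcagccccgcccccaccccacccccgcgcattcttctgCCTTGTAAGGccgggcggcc

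In the same window, none of the promoters of Cnn1, Smtn, Des and Mylk held a box with up to 1 mismatch. The full palindromic estrogen response element, searched on both strands, was in none of the 7 promoters and in 0.0639% of all promoters. These matches describe the printed windows and are not evidence of binding.

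In vehicle-treated mice the members covered a wide range of levels. Per kilobase of merged exons, the mean of 6 libraries was highest for Myl9, at 686 ± 180.1 CPM per kb (SD), and Acta2 followed at 600.4 ± 179 CPM per kb. The ranges of these genes over the libraries overlapped, as did those of Acta2 and Tagln (350.5 ± 103 CPM per kb). Myh11 (112 ± 24.5), Cnn1 (78.4 ± 21.1) and Smtn (60.9 ± 14.1 CPM per kb) formed the middle of the order, and each overlapped its neighbour in this order. Lmod1 (36.8 ± 8.81) and Mylk (27.8 ± 5.31 CPM per kb) were lower and overlapped each other. Des, the gene of the intermediate filament protein desmin (6.06 ± 1.40 CPM per kb), and Myocd, the gene of the coactivator (2.09 ± 0.557 CPM per kb), were the lowest. The vehicle ranges of Tagln and Myh11, of Mylk and Des, and of Des and Myocd did not overlap. The place of Tagln in this order is uncertain, because 67.9% of its exon bases overlap genes on the other strand. CPM values are counts scaled to a common library size with TMM factors. The alignment tool named by the submitters does not place reads across introns of a genome, so levels per kb of genes with many short exons may be understated, and this was not tested.

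Before the comparisons, 2 libraries stood apart in ganglion genes. The members summed to between 0.32% and 1.074% of the counts of a library, and the highest share belonged to tamoxifen replicate C35, in which their summed level was 10710 CPM against 3911 to 5520 CPM in the other 5 tamoxifen libraries. The same library was low in 8 genes of sympathetic ganglion neurons (mean log2 CPM 3.90, against 8.04 to 8.52 in the other tamoxifen libraries), as was vehicle replicate C5 (1.29, against 6.95 to 8.10). None of the 8 ganglion genes was at 0 in any library. The member level of C5 lay inside the range of the vehicle group (5411 CPM, against 3137 to 6412 CPM in the others). In these whole-artery libraries, fewer smooth muscle cells and less RNA per cell cannot be told apart. Total counts ran from 24647246 to 64221401 per library (median 45156106).

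**Figure D1:**
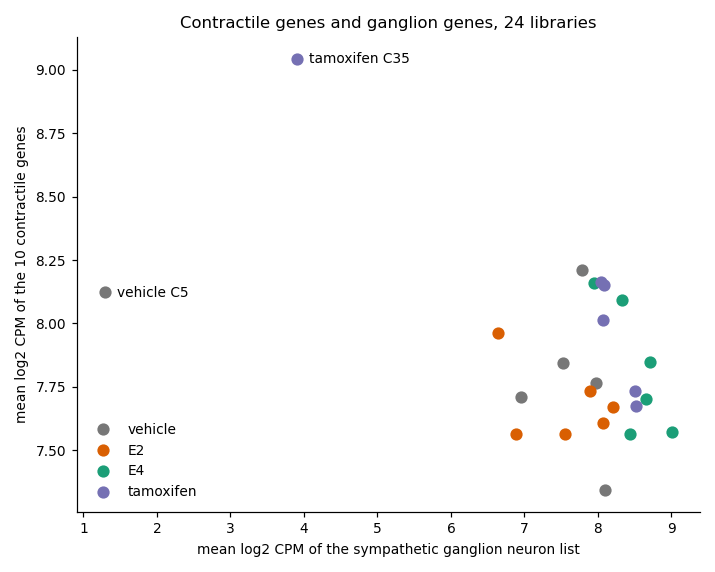
Mean log2 CPM of the 10 contractile genes (vertical) against mean log2 CPM of 8 sympathetic ganglion neuron genes (horizontal) in each of the 24 libraries, colored by group. Tamoxifen C35 (9.04 against 3.90) and vehicle C5 (8.12 against 1.29) stand away from the other 22 libraries on the horizontal axis.

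To ask whether the estrogens changed the contractile apparatus, each treated group was compared with vehicle in a single edgeR quasi-likelihood fit of all 24 libraries, with Benjamini-Hochberg adjustment over the 25033 genes. The 3 comparisons share the same vehicle libraries. Myocd was the member called in this fit, with higher expression in E4-treated and tamoxifen-treated mice. No other member passed an adjusted p of 0.05 in these comparisons. In E4 against vehicle, 1 of 10 members passed, where 22% of all genes did. In E2 against vehicle, 0 of 10 passed in edgeR and 0 in DESeq2, and 4.16% of all genes passed. At an unadjusted p under 0.05 there were 1 of 10 members and 16% of all genes. In tamoxifen against vehicle, 1 of 10 passed, where 2.21% of all genes did.

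**Figure D2:**
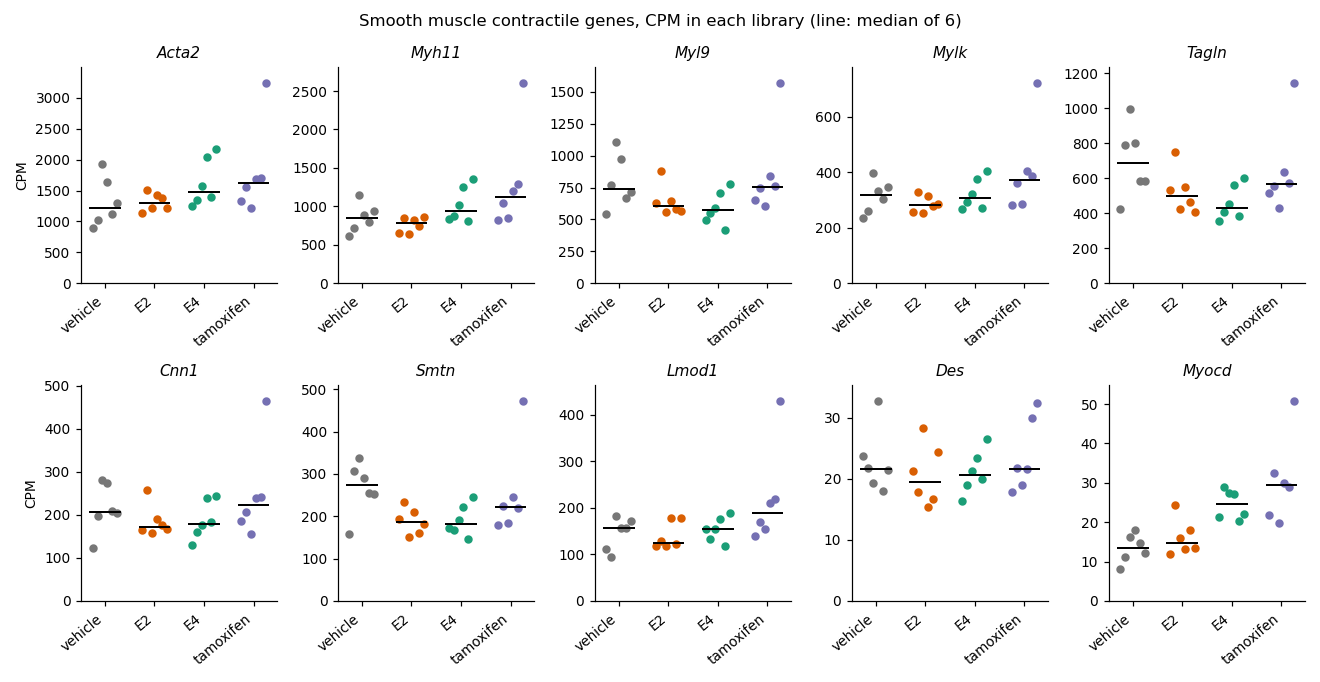
CPM of each contractile gene (vertical, linear from 0, own scale per panel) in the 24 libraries by group, with points for libraries and a line for the median of 6. For Myocd the 6 E4 and the 6 tamoxifen libraries lie above the 6 vehicle libraries, and for most genes tamoxifen C35 is the highest point.

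The actin and myosin filament genes did not pass in any comparison with vehicle, although with the ganglion mean as a covariate Acta2 passed with E4 (0.55, adjusted p = 0.0385, edgeR) and Myh11 with tamoxifen (0.64, adjusted p = 0.0453, edgeR). Acta2 (chr19:34241090-34255590), which encodes smooth muscle α-actin, had a lowest, median and highest level of 897.5, 1211 and 1928 CPM in vehicle. These were 1137, 1300 and 1512 CPM with E2, 1257, 1477 and 2170 CPM with E4, and 1212, 1624 and 3236 CPM with tamoxifen. All 4 groups overlapped, and the log2 fold change was 0.30 ± 0.22 (SE) for E4, -0.01 ± 0.22 for E2 and 0.44 ± 0.22 for tamoxifen against vehicle. Myh11 (chr16:14194535-14291372), the smooth muscle myosin heavy chain, had 611.9, 841.1 and 1146 CPM in vehicle and 642.1, 782.6 and 858.8 CPM with E2. It had 814.4, 943.4 and 1351 CPM with E4 and 823.4, 1119 and 2599 CPM with tamoxifen. The log2 fold change of Myh11 was 0.27 ± 0.22 for E4, -0.16 ± 0.22 for E2 and 0.62 ± 0.23 for tamoxifen, the last with an adjusted p of 0.122 that became 0.248 at 0.30 without C35.

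The regulatory light chain gene Myl9 (chr2:156775420-156781658) encodes the target of the kinase. It had 543.2, 741.6 and 1111 CPM in vehicle, 556, 602.9 and 879.7 CPM with E2, 419.7, 571.7 and 776.8 CPM with E4, and 604.1, 753.5 and 1567 CPM with tamoxifen. In 2 of 6 E4 libraries Myl9 lay below every vehicle library, and its log2 fold change of -0.43 ± 0.21 (95% interval -0.87 to 0.01) did not pass (adjusted p = 0.145, edgeR). For E2 and tamoxifen the log2 fold changes were -0.31 ± 0.21 and 0.11 ± 0.21. The kinase gene Mylk (chr16:34745210-35002420) had medians of 319, 282.3, 307.3 and 373.7 CPM in vehicle, E2, E4 and tamoxifen, with a full range of 234.7 to 720.8 CPM. Its log2 fold changes were 0.04 ± 0.18, -0.12 ± 0.18 and 0.38 ± 0.18 for E4, E2 and tamoxifen.

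Among the actin-binding proteins, Tagln and Smtn had the lowest estimates with the estrogens. Tagln (chr9:45929619-45936058), the gene of transgelin, had a lowest, median and highest level of 423.9, 687.8 and 995.9 CPM in vehicle and 404.6, 496.6 and 747.1 CPM with E2. With E4 it had 354.4, 430.5 and 601.9 CPM, and with tamoxifen 430.2, 564.1 and 1142 CPM. Of the E4 libraries, 3 of 6 lay below every vehicle library, and the log2 fold change was -0.60 ± 0.22 with an adjusted p of 0.0565 in edgeR. It passed with DESeq2 (-0.58, adjusted p = 0.043) and without vehicle replicate C2 (-0.71, adjusted p = 0.0244), which had the lowest Tagln of the vehicle group, or without E4 replicate C39 (-0.69, adjusted p = 0.0414), which had the highest of the E4 group. Tagln also passed in edgeR with library totals (adjusted p = 0.0411), with vehicle, E2 and E4 alone (0.0387) and without C5 and C35 (0.0419). It was not called with vehicle and E4 fitted alone or without the expression filter. The Tagln counts are uncertain as a level: 67.9% of its exon bases overlap genes on the other strand, and one of these, Gm48529, was counted at 97 to 101.5% of the Tagln value in every library.

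Smtn (chr11:3517523-3540612) encodes smoothelin, a protein of contractile smooth muscle, and had 158.8, 273.3 and 337.2 CPM in vehicle. It had 150.5, 187.4 and 232.9 CPM with E2, 145.8, 182.2 and 244.3 CPM with E4, and 179.6, 221.7 and 471.3 CPM with tamoxifen. One vehicle library, C2, lay within both estrogen groups, while the other 5 vehicle libraries lay above all 6 E4 and all 6 E2 libraries. The log2 fold change was -0.48 ± 0.21 for E4 (adjusted p = 0.0925) and -0.50 ± 0.21 for E2 (adjusted p = 0.204). Without C2 the E4 value was -0.60 and passed (adjusted p = 0.0337, edgeR). Smtn also passed with vehicle, E2 and E4 alone in the fit (adjusted p = 0.0414, edgeR) and without C5 and C35 (0.0456). With tamoxifen the Smtn value was -0.07 ± 0.21.

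Cnn1 (chr9:22099216-22109630), the gene of calponin, had medians of 206.7, 172.3, 179.1 and 222.8 CPM in vehicle, E2, E4 and tamoxifen, and all groups overlapped. Its log2 fold changes were -0.19 ± 0.23 for E4, -0.21 ± 0.23 for E2 and 0.21 ± 0.23 for tamoxifen. Lmod1 (chr1:135324807-135368065), which encodes leiomodin, an actin filament nucleator, had 93.6, 156.4 and 181.6 CPM in vehicle and 138.8, 189.5 and 428.3 CPM with tamoxifen. Its tamoxifen log2 fold change of 0.60 ± 0.22 (adjusted p = 0.130) was 0.30 (adjusted p = 0.27) without C35. With E4 and E2 the values were 0.08 ± 0.22 and -0.05 ± 0.22. Des (chr1:75360329-75368579) had the narrowest range of the members on the log2 scale over the 24 libraries, 3.95 to 5.03 log2 CPM, with log2 fold changes of -0.11 ± 0.17, -0.14 ± 0.17 and 0.06 ± 0.17 for E4, E2 and tamoxifen.

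Myocd (chr11:65176561-65269989) encodes myocardin, the coactivator of serum response factor. Its lowest, median and highest level was 8.2, 13.5 and 18.1 CPM in vehicle and 11.9, 14.8 and 24.2 CPM with E2. It was 20.3, 24.7 and 29.01 CPM with E4 and 19.9, 29.4 and 50.7 CPM with tamoxifen. All 6 E4 and all 6 tamoxifen libraries thus lay above all 6 vehicle libraries, whereas 1 of 6 E2 libraries did. No other member was without overlap in CPM. Over all tested genes, CPM did not overlap vehicle in 9.37% with E4 and in 2.58% with tamoxifen. Myocd was 1.82-fold higher with E4 (log2 fold change 0.87 ± 0.21, 95% interval 0.43 to 1.31, adjusted p = 0.00687, edgeR) and 2.28-fold higher with tamoxifen (1.19 ± 0.21, 0.75 to 1.63, adjusted p = 0.00818, edgeR). Of all members and comparisons, Myocd with tamoxifen against vehicle was the only called change above 2-fold. With E2 the log2 fold change was 0.26 ± 0.21, with a 95% interval of -0.18 to 0.70 (adjusted p = 0.636). Counts of Myocd ran from 437 to 2185 per library.

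The Myocd calls held when any single library was left out, with an adjusted p (edgeR) of at most 0.0211 for E4 and 0.029 for tamoxifen. Each group draws its animal numbers from 2 series, and whether these are batches is not stated. Within the first series (4 vehicle and 3 E4 libraries) the E4 value was 0.95 (adjusted p = 0.0535, edgeR), and within the second (2 vehicle and 3 E4 libraries) it was 0.79 (adjusted p = 0.287), so that the direction was shared and the test passed in neither. The first-series fit of E4 against vehicle called 12.1% of all genes and 1 member, Tagln as lower (-0.90, adjusted p = 0.0484, edgeR). The tamoxifen values of Myocd were 0.87 and 1.44 (adjusted p = 0.129 and 0.728). In tamoxifen against vehicle 1 gene of all passed in the first series and 0 in the second in edgeR (1636 at an unadjusted p under 0.05), and in E4 against vehicle 5 passed in the second, so that these 3 fits called few genes of any kind. The tamoxifen call was also lost when vehicle and tamoxifen libraries were fitted alone (1.19, adjusted p = 0.0693), and it held without C35 (0.99, adjusted p = 0.0131). Because sets of smooth muscle genes vary together between arteries, the mean of 16 cytoskeletal partner genes was entered as a covariate, a choice made after seeing the data. Myocd then passed with E4 (0.86, adjusted p = 0.000382) and with tamoxifen (0.88, adjusted p = 0.00641). With the mean of 12 other smooth muscle marker genes instead, it passed with E4 (0.72, adjusted p = 0.0127) and not with tamoxifen (0.81, adjusted p = 0.176).

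**Figure D3:**
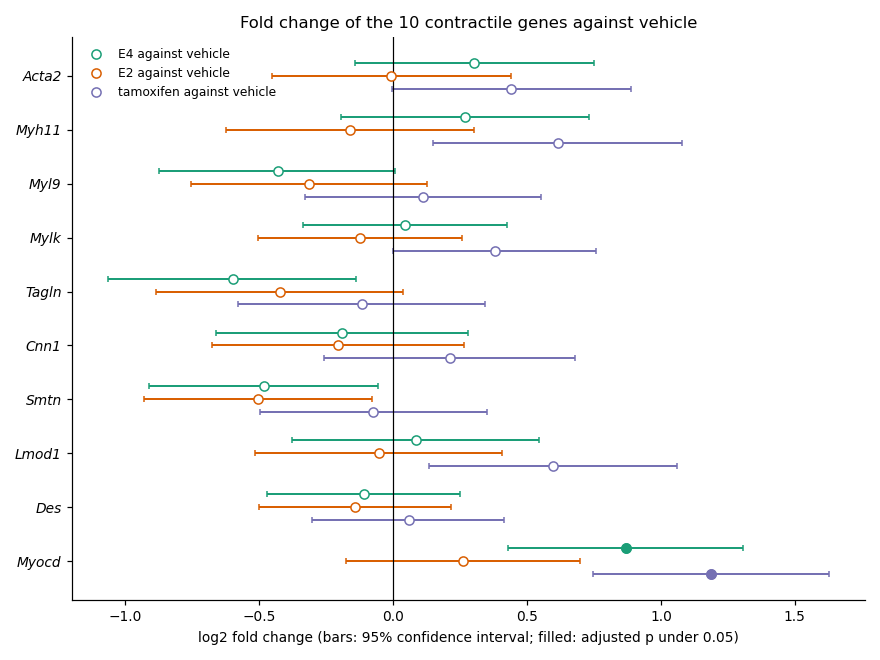
Log2 fold change against vehicle (horizontal) of the 10 contractile genes with E4, E2 and tamoxifen, from one fit of 24 libraries, with 95% confidence intervals as bars and filled points where the adjusted p was under 0.05. Myocd with E4 (0.87) and tamoxifen (1.19) are the filled points.

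Over the 10 members, the median log2 fold change was -0.03 with E4, with 5 positive and 5 negative, and -0.15 with E2, with 9 negative. It was 0.30 with tamoxifen, with 8 positive. The median over all tested genes was -0.0142, 0.006 and -0.0033, respectively. The tamoxifen median was 0.05 when C35 was left out and 0.12 without C35 and vehicle C5. It was -0.145 in the first number series and 0.63 in the second, which holds C35 beside C32 and C33. In C35 the summed levels of endothelial (1185 CPM), fibroblast (13950 CPM), pericyte (1280 CPM) and skeletal muscle markers (282.9 CPM) were also the highest of the 24 libraries. Their part in the member levels was not tested.

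Between the treated groups, 0 of 10 members passed in E4 against E2 with edgeR, where 12.5% of all genes passed. The closest was Myocd (log2 fold change 0.61 ± 0.21, 95% interval 0.17 to 1.04, adjusted p = 0.0601), and 1 of 10 members had an unadjusted p under 0.05, where 30.2% of all genes did. DESeq2 called 1 member, Myocd (0.62, adjusted p = 0.0337), and edgeR did so without E2 replicate C8 (0.76, adjusted p = 0.0349), which had the highest Myocd of the E2 group. The 95% intervals of the other 9 members included 0 and reached from -0.64 at the lowest to 0.90 at the highest. Myh11 (0.43 ± 0.22, adjusted p = 0.199, edgeR) passed when E4 and E2 libraries were fitted alone (0.43, adjusted p = 0.0408) and without vehicle C5 and tamoxifen C35 (0.44, adjusted p = 0.0413). In tamoxifen against E2, all 10 estimates were positive (0.20 to 0.93), with a median of 0.44 that was 0.185 without tamoxifen C35. Of these, 2 of 10 passed, where 6.44% of all genes did, and DESeq2 also called Lmod1.

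The genes higher with tamoxifen than with E2 were Myocd (1.9-fold, log2 fold change 0.93 ± 0.21, adjusted p = 0.00918, edgeR) and Myh11 (1.71-fold, 0.78 ± 0.23, adjusted p = 0.0396, edgeR). In 4 of 6 tamoxifen libraries Myocd, and in 4 of 6 Myh11, lay above every E2 library. The Myh11 call was lost without any one of E2 replicates C6, C8, C9, C26 and C27 or tamoxifen replicates C32, C33 and C35 (adjusted p up to 0.0919), and without C35 its value was 0.46. Myocd passed without C35 (0.73, adjusted p = 0.0198). It did not pass within the first number series (0.50, adjusted p = 0.306) or with the other smooth muscle markers as a covariate (0.34, adjusted p = 0.574). In tamoxifen against E4, 0 of 10 passed in edgeR and 0 in DESeq2, and 0.34% of all genes passed. At an unadjusted p under 0.05 there were 3 of 10 members and 9.12% of all genes. The 10 estimates ran from 0.14 to 0.54, with a median of 0.37 that was 0.11 without C35.

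The levels of the members moved together from artery to artery. Within groups, the SD of log2 CPM was 0.31 to 0.41, depending on the gene. The correlation of each member with the mean of the other 9 over the 24 libraries, given as a description, was highest for Mylk (Pearson r = 0.973, Spearman rho = 0.934) and Cnn1 (0.926 and 0.877). It was lowest for Des (0.446 and 0.283) and Myocd (0.584 and 0.444). Without the 2 libraries farthest from the median, tamoxifen C35 and vehicle C4, r was 0.936 for Mylk and 0.301 for Des. The 24 libraries pool 4 groups and share tissue composition, and the genes are not independent replicates. The level of each member was therefore also expressed relative to the other 9 in the same library, as its log2 CPM minus their mean log2 CPM. The within-group SD of this value was 0.08 to 0.26 for 9 members and 0.36 for Des.

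Relative to the other members, several genes of the set were without overlap with vehicle in the E4 and tamoxifen groups, and none was with E2. The E2 differences of Myocd, Tagln, Smtn and Myl9 had the same directions. With E4, 5 of 10 members had relative levels that did not overlap those of vehicle, where 2.56% of all tested genes were without overlap when measured against the same members. Myocd and Myh11 were higher and Tagln, Smtn and Myl9 were lower. With tamoxifen, 4 of 10 did not overlap, where 2.29% of all genes were without overlap. Myocd was higher, and Tagln, Smtn and Myl9 were lower. With E2, 0 of 10 were without overlap, where 2.58% of all genes were. These differences sum to about 0 by construction, since one member can only be relatively higher if others are lower. The share over all genes is measured against members that those genes are not part of, so it is only a rough reference.

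**Figure D4:**
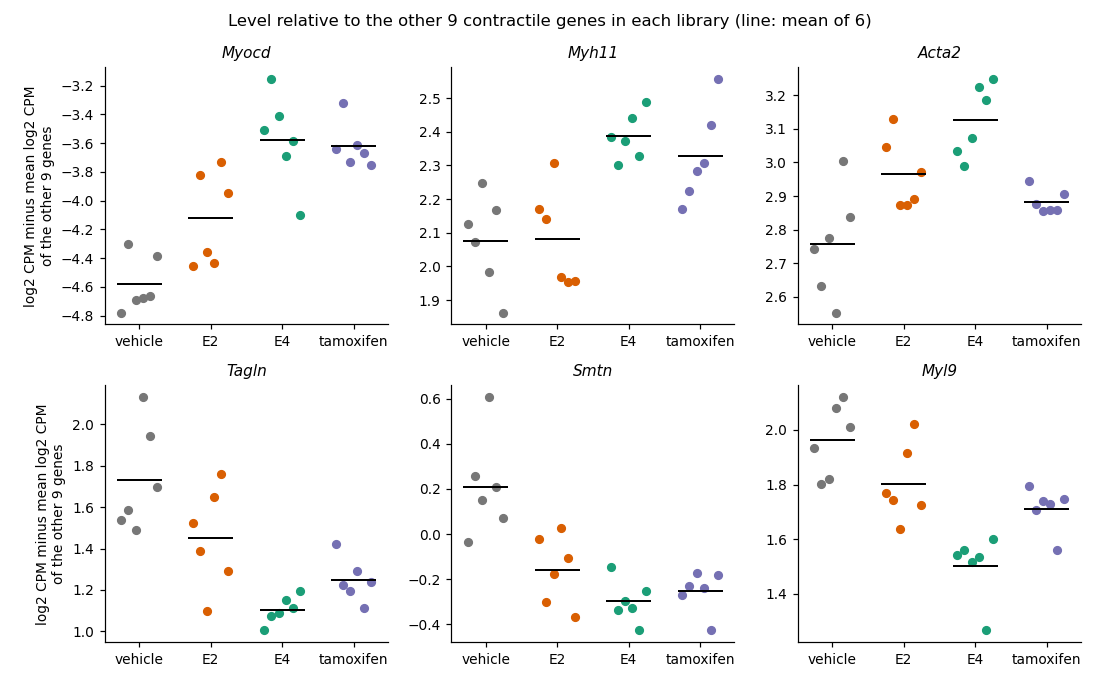
Log2 CPM minus the mean log2 CPM of the other 9 contractile genes (vertical, own scale per panel) for Myocd, Myh11, Acta2, Tagln, Smtn and Myl9 in each library by group, with a line at the mean of 6. The E4 libraries lie above the vehicle libraries for Myocd and Myh11 and below them for Tagln, Smtn and Myl9, and E2 libraries overlap vehicle in all 6 panels.

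The relative level of Myocd was -4.78 to -4.30 in vehicle, -4.46 to -3.73 with E2, -4.10 to -3.16 with E4 and -3.75 to -3.32 with tamoxifen. Its mean difference to vehicle was 1.01 with E4, 0.96 with tamoxifen and 0.46 with E2, in log2 units. For Tagln the relative level was 1.49 to 2.13 in vehicle and 1.10 to 1.76 with E2, against 1.004 to 1.19 with E4 and 1.11 to 1.42 with tamoxifen. The difference was -0.63 with E4, -0.48 with tamoxifen and -0.28 with E2. Smtn differed by -0.51 with E4, -0.46 with tamoxifen and -0.37 with E2, and Myl9 by -0.46, -0.25 and -0.16. With E2 both genes overlapped vehicle, although 4 E2 libraries lay below every vehicle library for Smtn, and 4 did for Myl9. Myh11 was relatively higher with E4 by 0.31, whereas its tamoxifen libraries (2.17 to 2.56) overlapped vehicle (1.86 to 2.25).

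Against α-actin alone, the mean ratio was lower with E4 than in vehicle for every other member except Myocd. The members that were relatively lower with E4 are thus not particular in this. Acta2 itself was relatively higher with E4 by 0.37, with 5 of 6 libraries above all vehicle libraries, so that a ratio to Acta2 shows larger falls than the level relative to the other 9 members. The Tagln level was 53.6 ± 11.7% of the Acta2 level in vehicle (SD, n = 6), with a range of 44.8 to 76.9%. It was 28.4 ± 1.1% with E4 (27.4 to 30.2%), 36.1 ± 1.81% with tamoxifen (33.6 to 38.7%) and 39.4 ± 7% with E2 (33.1 to 49.4%). Neither E4 nor tamoxifen overlapped vehicle, and E2 did. The share of all genes without overlap as a ratio to Acta2 was not computed, so the separations on this scale have no reference. The Myl9 level was 61.2 ± 6.82% of Acta2 in vehicle, 36.5 ± 3.83% with E4, 48.2 ± 1.94% with tamoxifen and 48.8 ± 6.35% with E2. Smtn was 20.8 ± 4.79% of Acta2 in vehicle (17.5 to 29.7%), 11.9 ± 1.21% with E4, 14.1 ± 0.822% with tamoxifen (12.9 to 15.1%) and 14.4 ± 1.93% with E2 (11.7 to 16.9%), so that on this scale the E2 libraries also lay below all vehicle libraries. Cnn1 separated on this scale, at 13.7 to 19.1% in vehicle and 10.3 to 13.1% with E4, whereas its level relative to the other 9 members overlapped (difference -0.18). The members that were relatively higher did not separate on this scale with E4: Myh11 was 65.8 ± 7.12% of Acta2 in vehicle and 63.1 ± 2.95% with E4, and Myocd was 0.837 to 1.32% in vehicle and 1.02 to 2.16% with E4. With tamoxifen Myocd was 1.57 to 2.09% of Acta2, above all vehicle libraries. These are ratios of CPM, not of molecules, and the Tagln value depends on how reads shared with its antisense partner were counted.

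Without vehicle C5 and tamoxifen C35, 5 members were without overlap with E4 (3% of all genes), 0 with E2 (2.86%) and 4 with tamoxifen (2.85%), and they were the members named above. Within the first number series (4 vehicle and 3 E4 libraries), the same 5 members did not overlap between E4 and vehicle, where 8.96% of all genes did not. The difference was 1.27 for Myocd, 0.32 for Myh11, -0.77 for Tagln, -0.47 for Smtn and -0.50 for Myl9. In that series 5 members were without overlap with tamoxifen, the 4 named above and Myh11 (5.67% of all genes), and 0 with E2 (5.72%). Within the second series (2 vehicle and 3 E4 libraries) the E4 differences were 0.70, 0.26, -0.38, -0.54 and -0.35, in the same directions. There the groups are too small for overlap to separate genes: 21.4%, 41% and 67.1% of all genes were without overlap with E4, E2 and tamoxifen, beside 7, 3 and 7 of 10 members.

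With the cytoskeletal partner covariate, the edgeR fit called the same 5 members in the same directions in E4 against vehicle, and Acta2 as higher (0.27, adjusted p = 0.0177), where 27.7% of all genes passed. The partners include Tpm2, which followed the member mean (r = 0.973), so this fit is not independent of the relative levels. In tamoxifen against vehicle it called Myocd as higher and Tagln and Smtn as lower, but not Myl9, where 6.01% of all genes passed. In E2 against vehicle it called Smtn as lower (-0.42, adjusted p = 0.00681), where 5.92% of all genes passed. With the other smooth muscle markers as the covariate, Myocd, Tagln, Smtn and Myl9 passed with E4, where 21.8% of all genes did, and no member passed with tamoxifen, where 0.0439% of all genes did. Between treated groups, the relative level of 1 of 10 members did not overlap in E4 against E2 (Myl9, lower with E4 by 0.30), where 5.74% of all genes did not overlap. In tamoxifen against E4 it was 1 of 10 (Acta2, lower with tamoxifen by 0.24), where 0.583% of all genes did not overlap, and in tamoxifen against E2 it was 0 of 10, where 12.2% of all genes did not overlap.

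Genes that work with the members were examined in 5 lists. Of 16 contractile and cytoskeletal partners, 2 were higher and 1 lower with E4, 0 changed with E2 and 1 was higher with tamoxifen. Over all genes, 9.52% were higher and 12.5% lower with E4, 2.88% and 1.28% with E2, and 1.29% and 0.919% with tamoxifen. The 3 of 16 with E4 are thus near the share over all genes. Tln1, which encodes talin and links integrins to actin, was 178.4 ± 17 CPM in vehicle, 262.6 ± 34.2 CPM with E4 (log2 fold change 0.56, adjusted p = 0.00103) and 251 ± 37.6 CPM with tamoxifen (0.49, adjusted p = 0.0172), all by edgeR. Its E4 and tamoxifen libraries did not overlap vehicle. Actn1, an α-actinin that cross-links actin, was higher with E4 (0.42, adjusted p = 0.0401). Myl6, the essential light chain of smooth muscle myosin, was lower with E4 (293.4 ± 24.8 against 474.6 ± 93.2 CPM, -0.69, adjusted p = 0.00681, edgeR).

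Of 12 regulators of light chain phosphorylation, 2 were higher with E4 and 1 with E2, beside the 9.52% and 2.88% of all genes that were higher. Rhoa, the small GTPase that restrains myosin phosphatase through its kinases, was 164.3 ± 17.1 CPM in vehicle, 201 ± 14.4 CPM with E4 (0.29, adjusted p = 0.00888, edgeR) and 197.8 ± 14.5 CPM with E2 (0.27, adjusted p = 0.0397, edgeR). Dapk3, a kinase acting on the light chain and the phosphatase, was close to the threshold with E4 (0.24, adjusted p = 0.0498). The 12 did not hold a called gene in tamoxifen against vehicle, where Rhoa was at 0.26 (adjusted p = 0.0601). Median log2 fold changes of this list were -0.00, 0.04 and 0.13 for E4, E2 and tamoxifen.

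Of 10 transcriptional regulators of the contractile program, 1 was higher with E4, beside 9.52% of all genes, and 0 were called with E2 or tamoxifen. Mrtfa, a coactivator of serum response factor related to myocardin and controlled by actin, was 18.01 ± 1.63 CPM in vehicle and 23.9 ± 2.77 CPM with E4 (0.41, adjusted p = 0.00233, edgeR). Srf itself was at 0.01, -0.06 and 0.15 with E4, E2 and tamoxifen, and Klf4, a repressor of the program, at -0.08, 0.07 and 0.08. None of these passed. Among 12 other smooth muscle markers, Aoc3, a vascular amine oxidase, was higher with E4 (202.5 ± 34.5 to 288.4 ± 60 CPM, 0.51, adjusted p = 0.0238, edgeR), and the other 11 did not pass in a comparison with vehicle.

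Of 12 genes of modulated smooth muscle, 2 were lower with E4 and 1 higher with E2, beside 12.5% of all genes lower with E4 and 2.88% higher with E2. Mgp, the matrix Gla protein that inhibits calcification, was 673.2 ± 184 CPM in vehicle and 384.4 ± 59.3 CPM with E4 (-0.81, adjusted p = 0.0139, edgeR), and Lum, the matrix proteoglycan lumican, was 441.9 ± 54.5 and 282.1 ± 53.9 CPM (-0.65, adjusted p = 0.0042, edgeR). Both are also expressed by fibroblasts, and 5 of 8 fibroblast markers were lower with E4. The summed fibroblast level was 7721 to 12570 CPM in vehicle and 6031 to 9741 CPM with E4. Lgals3, which encodes galectin 3 and is abundant in macrophages, was higher with E2 (18.1 ± 2.82 to 28.4 ± 2.49 CPM, 0.65, adjusted p = 0.00109, edgeR), where all 6 macrophage markers were higher (summed level 252.7 to 460.3 CPM in vehicle and 471.5 to 633.3 CPM with E2). The part of these cell types in the 3 genes was not tested.

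In the comparisons between treated groups, the genes named here were chosen after their values were seen. In tamoxifen against E2, 1.93% of all genes were higher and 4.51% lower. Of the lists, 1 of 16 partners, 0 of 12 light chain regulators, 1 of 10 transcriptional regulators and 1 of 12 other smooth muscle markers were higher, and of 12 genes of modulated smooth muscle 1 was higher and 2 were lower. Csrp1, an actin-binding LIM protein (0.40), Notch3, a receptor of mural cells (0.66), Casq2, a calcium-binding protein of the sarcoplasmic reticulum (0.95), and Myh10, a nonmuscle myosin heavy chain (0.43), were higher. Ly6a (-0.72) and Lgals3 (-0.65) were lower. In E4 against E2, 3.55% of all genes were higher and 8.97% lower, and 0 of 16 partners, 0 of 12 light chain regulators, 1 of 10 transcriptional regulators and 3 of 12 genes of modulated smooth muscle were called, all of these lower. Mef2a (-0.27), Ly6a (-0.90), Lgals3 (-0.53) and Lum (-0.53) were lower. All 6 macrophage markers were also lower in E4 against E2 and in tamoxifen against E2. Of 8 fibroblast markers, 4 were lower in E4 against E2. The part of these cell types in the listed genes was not tested. In tamoxifen against E4 no gene of the 5 lists passed in edgeR.

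Markers of the other cells that a carotid artery and its surroundings could hold were read beside these results, in 12 lists. Their counts stand beside the same shares of all genes, of which 12.5% were lower and 9.52% higher with E4. Of 6 pericyte markers, 2 were lower with E4 (Rgs5 and Kcnj8), 1 with E2 (Rgs5) and 0 with tamoxifen, and the summed level was 920.6 to 1075 CPM in vehicle against 727.6 to 899.3 CPM with E4. Of 8 endothelial markers, Vwf was higher in all 3 comparisons with vehicle and Emcn was lower with E4. Besides the fibroblast decrease with E4, Col1a1 and Col1a2 were higher with tamoxifen and Gsn with E2. Of 6 macrophage markers, Mrc1 was lower with E4. Of 6 B cell markers, 5 were lower with E4 and 2 with tamoxifen (summed level 4.95 to 32.6 CPM in vehicle and 3.00 to 6.86 CPM with E4), and 0 of 6 T cell markers passed against vehicle. E2 replicate C9 stood apart in T cell markers, with a summed level of 304.2 CPM against 3.97 to 23.4 CPM in the other E2 libraries. Without it, 0 members passed in E2 against vehicle and in E4 against E2 (edgeR), and Myocd passed in tamoxifen against E2.

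Of 6 adipocyte markers, 2 were lower with E4 (Lep and Ucp1) and 1 with tamoxifen (Lep). Of 8 ganglion markers, Chga was higher with E4, and the list's mean was 7.94 to 9.00 log2 CPM with E4 against 1.29 to 8.10 in vehicle. Of 6 glial markers, Sox10 was higher with E4. No marker of skeletal muscle (12 tested), cardiac muscle (5 tested) or thyroid and parathyroid (4 tested) passed against vehicle, and among the markers of skeletal muscle Xirp2 was at 0 in 12 libraries and Myh4 in 5. The parathyroid markers Pth and Gcm2 did not reach the expression filter: Pth was at 0 in 21 libraries and Gcm2 in 19, with up to 71892 and 878 counts in the others, so that some libraries held parathyroid transcripts, and their part in the member values was not tested. With the ganglion mean as a covariate, Myocd passed with E4 (1.15, adjusted p = 0.000351, edgeR) and with tamoxifen (1.28, adjusted p = 0.000308, edgeR). With the B cell mean, the values were 1.304 (adjusted p = 0.0329, edgeR) and 1.51 (adjusted p = 0.0161, edgeR). In that fit 107 genes passed in E4 against vehicle, where 5514 did without the covariate.

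The genes most like the members over the 24 libraries were taken from 19518 genes with a mean of at least 1 CPM, by Pearson correlation of log2 CPM with the mean of the 10 members. Tpm2, a tropomyosin of the contractile filament, had r = 0.973 (Spearman rho = 0.956). It was followed by Marveld1 (0.960), Ppp1r12b, a regulatory subunit of myosin phosphatase (0.953), E130310I04Rik (0.953), Svil, which encodes supervillin (0.951), Tinagl1 (0.951), 4930562F07Rik (0.941) and Asap2 (0.940). Without C35 and vehicle C4 these values were 0.886 to 0.939. E130310I04Rik overlaps Mylk on the other strand and its counts may include Mylk reads. Over all compared genes the median r was -0.02, and 34 had r over 0.9.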

How the data were processed

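RNA of whole carotid arteries (integrity number above 7.4) was sequenced as 150-bp paired reads from a stranded mRNA library in 24 animals, 6 per group. Per the submitters' processing notes, bcl2fastq 2.17, Trim Galore, Bowtie2 and featureCounts were used with mm10 (GRCm38); the strand setting is not given in the sources used here. The deposited values are estimated counts per gene: 8.87 to 9.80% of the values of a library carried decimals and were rounded to whole numbers. Of 55421 identifiers, 55240 were named by GENCODE M21.

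Groups came from the sample titles. Counts were fitted in one edgeR 4.0.16 quasi-likelihood model of the 24 libraries (R 4.3.3, limma 3.58.1), with TMM scaling and the edgeR expression filter, and p-values were adjusted by Benjamini-Hochberg over 25033 genes with a threshold of 0.05. Standard errors were derived from the F statistic. Log2 CPM used a prior count of 2. Tables and plots were made with Python 3.11.15, pandas 2.3.3, scipy 1.17.1 and matplotlib 3.10.9. P-values measure the spread between libraries of separately numbered animals. On simulated counts for E4 against vehicle (24786 genes, 200 of them changed by 2 on the log2 scale), 97.5% of the changed genes were called, with 10 unchanged genes.

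Alternatives were DESeq2 1.42.0, its size factors, library totals, no filter, other sets of libraries, each library left out, thinning to one depth, and covariates for number series and for 4 marker lists. Covariates for cytoskeletal partners and other smooth muscle markers were added after seeing the data. The members, the 5 pathway and 12 marker lists were chosen with earlier results of these data known. All members are named, as are up to 4 genes per pathway list with the smallest adjusted p against vehicle, and the 8 genes most correlated with the members. A further result for these lists, in E4 against E2, is not reported here.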

Additional observations from a re-analysis of the deposited data

Results flagged for a closer look

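In 12 of 48 groups of 6 values examined, the highest or lowest library lay farther from the others than Dixon's 95% critical value allows, where chance gives about 1 in 20 (2.4 of 48). Tamoxifen replicate C35 accounted for 9 of the 12. Its levels were 3236 CPM for Acta2, 2599 CPM for Myh11, 1142 CPM for Tagln, 463.5 CPM for Cnn1, 471.3 CPM for Smtn, 428.3 CPM for Lmod1, 720.8 CPM for Mylk and 1567 CPM for Myl9, and its mean over the members was 9.04 log2 CPM. The other tamoxifen libraries reached at most 1706 CPM for Acta2 and 1296 CPM for Myh11. E2 replicate C8 was high in Cnn1 (258.7 CPM) and Myl9 (879.7 CPM). E4 replicate C38 had the lowest total count, 24647246.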

How the results depend on the processing

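Single-member values kept their direction and their side of the threshold in 673 of 720 cases with 1 library left out and in 849 of 990 under the other alternatives. Leaving out 1 library gave 1 to 3 called members in E4 against vehicle, 0 to 1 in E4 against E2 and 1 to 2 in tamoxifen against E2. In E4 against vehicle (1 called), the count was 2 with DESeq2, library totals or the ganglion covariate, 3 with vehicle, E2 and E4 alone or without C5 and C35, 0 in the second series, 6 with the partner covariate and 4 with the other smooth muscle markers. It was 1 in the first series, where the called member was Tagln (-0.90, adjusted p = 0.0484, edgeR) and not Myocd. In E2 against vehicle (0), the partner covariate gave 1, and the other smooth muscle markers a median of 0.13. In tamoxifen against vehicle (1), the count was 0 with the 2 groups alone, in either series and with the other smooth muscle markers, 2 with the ganglion and 3 with the partner covariate, and the median was -0.145 in the first series and -0.13 with the other smooth muscle markers. In E4 against E2 (0), it was 1 with DESeq2, with vehicle, E2 and E4 alone and with the ganglion or B cell covariate, 2 with the 2 groups alone, without C5 and C35 and with the partners, and 3 with the other smooth muscle markers. There the median was 0.30 in the second series and -0.40 with the other smooth muscle markers. In tamoxifen against E2 (2), it was 1 without a filter, with the 2 groups alone, without C5 and C35, in the second series and with the partners, and 0 in the first series and with the other smooth muscle markers. The medians were 0.047, 0.82, 0.024 and -0.32 in the first series, the second, with the partners and with the other smooth muscle markers. The last covariate also turned Lmod1 (-0.46) and Mylk (-0.36) in E4 against E2 and Myh11 (-0.23) in tamoxifen against E2. The cause of these shifts was not tested, and that covariate is itself made of smooth muscle genes. The second series holds 2 vehicle libraries, so its tests had few samples. No paired analysis was possible because no animal number occurs in 2 groups.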
